A study of Mus musculus with 10 samples.

Results

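Acute phase proteins are plasma proteins whose synthesis by the liver changes during injury, infection or inflammation. Described here are 10 of their genes, taken by symbol from a fixed list out of the 55385 gene identifiers in the count table of the EP300 experiment, namely Saa1, Saa2, Saa3, Orm1, Orm2, Orm3, Lcn2, Hp, Apcs and Crp. RNA was sequenced from sorted liver cells labelled as hepatocytes, in 2 libraries labelled EP300 KO and 2 labelled EP300 WT. The titles of these libraries also begin with HCC, the usual abbreviation of hepatocellular carcinoma, so the cells may be tumour cells. All 4 came from C57BL/6J 129SV mice with floxed alleles of Ep300, which encodes a coactivator that acetylates histones, and the labels give the genotypes as EP300-/- and EP300f/f. All 4 also ate a DDC diet, which damages the liver and its bile ducts, and had a hydrodynamic tail vein injection of the plasmid pT3-cMet, which carries the receptor tyrosine kinase cMet, with 5 months of treatment. The KO mice were given the virus AAV-TBG-Cre and the WT mice AAV-TBG-GFP. The TBG promoter is active in hepatocytes, so that other liver cells are expected to keep the floxed gene in either group. The question of the comparison is how acute phase genes differ when hepatocytes of an injured, cMet-exposed liver are depleted of EP300.

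Hepatocytes switch on acute phase genes in response to cytokines released mainly by macrophages. Interleukin-6 binds its receptor together with the signalling chain gp130 and activates the transcription factor STAT3, whereas interleukin-1 and tumour necrosis factor activate NF-kB, and both routes work with C/EBP factors on the same promoters. Genes such as the serum amyloid A and orosomucoid genes are classed as IL-1/NF-kB-type because IL-1 induces them strongly, usually together with IL-6, and genes such as Hp are classed as IL-6/STAT3-type. Many genes respond to both cytokines, and the placing of Crp, Apcs, Saa1 and Saa2 in particular is a matter of convention. Here 7 members were taken as IL-1/NF-kB-type (Saa1, Saa2, Saa3, Orm1, Orm2, Orm3 and Lcn2) and 3 as IL-6/STAT3-type (Hp, Apcs and Crp).

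The libraries held 17709799 to 18831671 counts. Their agreement with the labels was limited. Ep300, the targeted gene, stood at 62.3 and 57.9 CPM (counts scaled to library size) in the WT-labelled libraries and at 73.7 and 72.3 CPM in the KO-labelled libraries. It was higher and not lower under the KO label (log2 fold change 0.28, SE 0.07, adjusted p = 0.00498 with edgeR), a call that ended when EP300 WT replicate 2 was left out (adjusted p = 0.128). A count over the whole gene does not show whether an exon was deleted. Xist, the noncoding RNA of the inactive X chromosome in females, had 3 and 2 counts in the WT-labelled and 2310 and 1411 in the KO-labelled libraries, while the 4 Y-linked genes examined had counts in all 4 libraries and 0 of 4 passed the test. The sex of the animals behind each library is not in the labels used here, and its part in the results below was not tested. Directions are given between libraries as labelled. Of 10 hepatocyte markers, 6 rose and 1 fell, against 16.7% and 17.5% of all genes tested. Acute phase lists given below also hold Alb, Ttr and Serpina1c of these. The median log2 fold change of the 10 hepatocyte markers was 0.25. Their summed level was 96804 and 97009 CPM in the WT-labelled and 97166 and 99076 CPM in the KO-labelled libraries, and most of that sum is Alb, the marker that fell. The summed level of 8 lymphocyte markers was 0.790 to 1.25 CPM over the 4 libraries. The labels mention pooled sequencing and tie no library to an animal, so p-values reflect the spread of these libraries alone, which may be technical.

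All 10 members passed the filter on low counts. In the libraries labelled EP300 KO, 3 of them rose and 4 fell at an adjusted p below 0.05 in edgeR's quasi-likelihood test, adjusted over all 14200 genes tested. Across all genes 34.2% were called, 16.7% higher and 17.5% lower. The orosomucoid genes Orm1, Orm2 and Orm3 rose, and Apcs, Lcn2, Saa2 and Hp fell. Crp, Saa1 and Saa3 did not pass. The libraries of the labels did not overlap in 9 of the 10 members, Crp being the exception, against 66.4% of all genes tested. The median log2 fold change of the members was -0.034, and that of all genes tested was -0.0052. The members did not move as 1 block, and their fold changes ran from -1.36 in Apcs to 1.00 in Orm3.

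**Figure D1:**
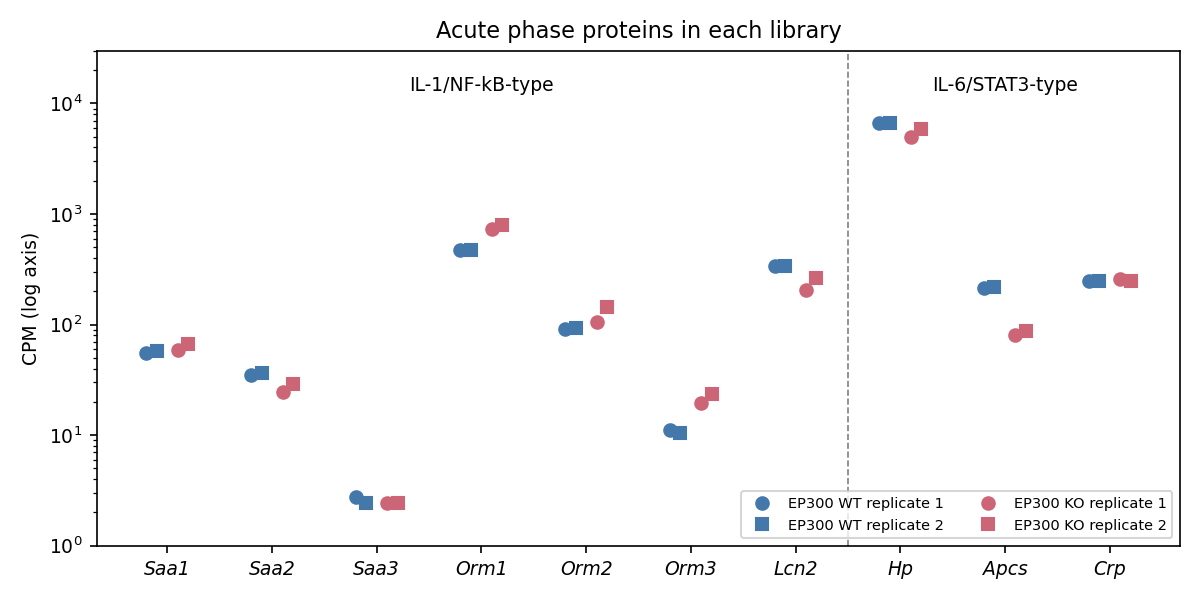
Level of each member in each of the 4 libraries, in CPM on a log axis, with 1 point per library (circles replicate 1, squares replicate 2). The KO-labelled points lie above the WT-labelled points in the 3 orosomucoid genes and below them in Lcn2, Hp, Apcs and Saa2, while those of Crp overlap.

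The stretches just upstream of RefSeq's transcription start are shown for the members that changed and that have an entry in RefSeq's promoter table, and for Saa1 beside its near copy Saa2. They come from build GRCm38.p6 and are written 5′ to 3′ on the strand of the gene. Each held 250 bases and ended at the base before RefSeq's start site, except that for Saa2 the last 43 bases, which lie within GENCODE's longer model of the gene, are left out. The whole Lcn2 stretch lies within GENCODE's model of Lcn2 and is not shown. Capitals mark matches to a C/EBP motif searched as TTGCNNAA, except in Apcs, where they mark a match to a STAT motif searched as TTCNNNGAA.
Saa1 (chr7:46742981-46743230, minus strand): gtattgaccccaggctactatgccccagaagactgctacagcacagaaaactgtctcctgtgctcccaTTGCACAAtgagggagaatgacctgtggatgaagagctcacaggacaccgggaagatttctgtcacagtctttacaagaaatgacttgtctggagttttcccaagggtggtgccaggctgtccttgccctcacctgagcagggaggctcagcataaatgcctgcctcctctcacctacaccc
Saa2 (chr7:46751583-46751789, plus strand): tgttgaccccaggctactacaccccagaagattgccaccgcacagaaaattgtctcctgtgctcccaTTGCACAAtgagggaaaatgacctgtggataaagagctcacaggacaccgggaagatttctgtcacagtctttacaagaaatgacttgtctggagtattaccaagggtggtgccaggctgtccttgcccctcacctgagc
Orm2 (chr4:63362199-63362448, plus strand): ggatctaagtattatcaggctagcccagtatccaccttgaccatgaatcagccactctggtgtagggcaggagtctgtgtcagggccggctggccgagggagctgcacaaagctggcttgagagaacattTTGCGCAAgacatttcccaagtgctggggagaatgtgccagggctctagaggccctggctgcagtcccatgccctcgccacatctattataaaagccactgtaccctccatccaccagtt
Orm3 (chr4:63355908-63356157, plus strand): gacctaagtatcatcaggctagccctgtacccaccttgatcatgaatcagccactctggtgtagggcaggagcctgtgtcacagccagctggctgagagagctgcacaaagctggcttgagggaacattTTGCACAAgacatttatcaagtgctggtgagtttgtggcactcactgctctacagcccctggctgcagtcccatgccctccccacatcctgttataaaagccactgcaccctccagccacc
Apcs (chr1:172895055-172895304, minus strand): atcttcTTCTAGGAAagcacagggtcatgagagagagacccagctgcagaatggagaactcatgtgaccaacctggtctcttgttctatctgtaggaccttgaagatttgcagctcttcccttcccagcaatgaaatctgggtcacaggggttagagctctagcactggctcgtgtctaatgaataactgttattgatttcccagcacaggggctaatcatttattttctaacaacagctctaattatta
Counted over the full stretches, of the 10 members 8 had an entry, and 6 of these 8 held a C/EBP match (Saa1, Saa2, Saa3, Orm2, Orm3 and Lcn2), each with 1. The motif was present in 9.56% of 32851 upstream stretches of the same length. A STAT match was present in 1 of the 8, Apcs, and in 7.02% of all stretches. A match to the kB motif bound by NF-kB was found in 0 of the 8 and in 7.25% of all stretches. Both strands were searched, no 2 matches overlapped, and a match is a description of the letters and not a bound site. The absence of a match says only that these letters are not in this window. The Saa1 and Saa2 stretches were 94.8% identical in a global alignment and those of Orm2 and Orm3 85.5%. The C/EBP match lay 182 to 175 bases before the start in Saa1 and 183 to 176 in Saa2, and 120 to 113 in Orm2 and 121 to 114 in Orm3. Within the serum amyloid pair, Saa2 fell and Saa1 did not pass the test, while both orosomucoid genes rose.

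The orosomucoids, also called alpha-1-acid glycoproteins, bind drugs and lipids in plasma, and their genes lie next to each other on chromosome 4 (mm10). Orm1 (63344560 to 63348163) had 469 and 476 CPM in the WT-labelled libraries and 731 and 798 CPM in the KO-labelled libraries. Both KO-labelled libraries were above both WT-labelled ones, with a log2 fold change of 0.69 (SE 0.06, adjusted p = 1.03e-07). Orm3 (63356162 to 63359511) had 11.2 and 10.5 CPM in the WT-labelled libraries and 19.4 and 23.8 CPM in the KO-labelled libraries. Its levels were about 1.99 times as high (log2 fold change 1.00, SE 0.12, adjusted p = 9.00e-06), the largest rise among the members. Orm2 (63362449 to 63365878) had 91.7 and 94.1 CPM in the WT-labelled libraries and 105 and 144 CPM in the KO-labelled libraries. The groups did not overlap, but the rise rested largely on KO replicate 2 (log2 fold change 0.42, SE 0.10, adjusted p = 0.00433). It was 0.19 without that library, and it did not pass with DESeq2 (adjusted p = 0.174), without EP300 WT replicate 1 (adjusted p = 0.124), without EP300 WT replicate 2 (adjusted p = 0.130) or with no filter (adjusted p = 0.191). The 3 genes are close copies, and 20.4% of the 50-base windows of the Orm1 transcript also occur in that of Orm2, so how reads divide among them is uncertain. The sum of the 3 does not depend on that division. It was 572 and 580 CPM in the WT-labelled and 856 and 966 CPM in the KO-labelled libraries, with a log2 fold change of 0.66 (SE 0.06, adjusted p = 3.66e-07).

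Serum amyloid A proteins are small apolipoproteins of high-density lipoprotein. Saa1 and Saa2 are made mainly by hepatocytes in inflammation, and Saa3 is also made by macrophages and fat tissue. The 3 genes lie within a short stretch of chromosome 7 (mm10). Saa2 (46751790 to 46754313) had 34.7 and 36.7 CPM in the WT-labelled libraries and 24.7 and 29.2 CPM in the KO-labelled libraries. Both KO-labelled libraries were below both WT-labelled ones, at a log2 fold change of -0.40 (SE 0.09, adjusted p = 0.00304). The call of Saa2 ended without EP300 WT replicate 2 (adjusted p = 0.126) and with no filter (adjusted p = 0.0928). Saa1 (46740497 to 46742980) had 55.5 and 58.2 CPM in the WT-labelled libraries and 59.0 and 67.0 CPM in the KO-labelled libraries. It did not pass (log2 fold change 0.15, 95% interval -0.014 to 0.31, adjusted p = 0.152), although it did without EP300 KO replicate 1 (0.25, adjusted p = 0.00502). Of the 50-base windows of the Saa1 transcript, 13.2% also occur in that of Saa2, so their split is uncertain too. Their sum was 90.1 and 94.8 CPM in the WT-labelled and 83.7 and 96.2 CPM in the KO-labelled libraries, and the groups overlapped (log2 fold change -0.040, 95% interval -0.19 to 0.12, adjusted p = 0.722). Saa3 (46711998 to 46715700) was the least abundant member, with 52 and 47 counts in the WT-labelled and 42 and 42 in the KO-labelled libraries. Its interval was wide (log2 fold change -0.096, 95% interval -0.63 to 0.44, adjusted p = 0.806), so at this depth the counts are compatible with any change within these bounds.

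Saa4, a neighbouring serum amyloid A gene that is expressed without inflammation, is not a member but shows the family beside them. It had 132 and 139 CPM in the WT-labelled and 338 and 327 CPM in the KO-labelled libraries, and rose by 1.29 on the log2 scale (SE 0.06, adjusted p = 1.01e-10). Its rise was larger than the change of any of the 3 inducible serum amyloid genes.

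Lcn2 encodes lipocalin-2, which binds bacterial siderophores and so withholds iron, and it is a strong NF-kB target in hepatocytes that neutrophils also carry in their granules. Lcn2 (chromosome 2, 32384633 to 32388252) had 339 and 339 CPM in the WT-labelled libraries and 207 and 262 CPM in the KO-labelled libraries. It was 0.692 times as high in the KO-labelled libraries (log2 fold change -0.53, SE 0.08, adjusted p = 9.43e-05), with no overlap between the groups, and the call was lost with no filter (adjusted p = 0.0672). Of 13 neutrophil markers, 9 were tested, 5 fell and 0 rose, while 17.5% of all genes tested were called lower and 16.7% higher. The summed level of the 13 markers was 26.0 and 28.1 CPM in the WT-labelled and 15.9 and 13.1 CPM in the KO-labelled libraries. Ly6g, a defining marker of neutrophils, had 2 and 0 counts in the WT-labelled and 1 and 0 in the KO-labelled libraries, and Mpo, the marker with the largest fall, had 26 and 25 counts against 0 and 5, and did not pass without EP300 WT replicate 2 or with no filter. Ngp, a granule protein gene of the same list named after its values were seen, had 67 and 83 counts against 10 and 9 (log2 fold change -2.82, SE 0.32, adjusted p = 4.81e-06). The list was not uniform, as 4 tested markers did not pass. These, also named after their values were seen, were Mmp9 (-0.79), S100a8 (-0.42), Cxcr2 (-0.21) and Mmp8 (0.27). Retnlg, named likewise and not tested, had 4 and 9 counts in the WT-labelled and 20 and 9 in the KO-labelled libraries. Camp and Elane, named likewise, were not tested either. Camp had 10 and 17 counts in the WT-labelled and 0 and 1 in the KO-labelled libraries, and Elane had 13 and 9 against 0 and 3. The part of neutrophil RNA in the Lcn2 result was not tested. In such bulk libraries, fewer cells of a type and less RNA per cell cannot be told apart.

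Hp encodes haptoglobin, which binds free haemoglobin in plasma, and was the most abundant member. Hp (chromosome 8, 109575128 to 109579172) had 6611 and 6697 CPM in the WT-labelled libraries and 4949 and 5866 CPM in the KO-labelled libraries. All KO-labelled values were below the WT-labelled ones, and the gap between the KO-labelled libraries was larger than that from KO replicate 2 to the WT-labelled libraries. The log2 fold change was -0.30 (SE 0.06, adjusted p = 0.00126), and -0.17 without EP300 KO replicate 1. Its call ended without EP300 WT replicate 1 (adjusted p = 0.0761), without EP300 WT replicate 2 (adjusted p = 0.132) and with no filter (adjusted p = 0.131).

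Apcs and Crp encode the short pentraxins serum amyloid P component and C-reactive protein, which recognise microbial surfaces and debris. In the mouse Apcs is the major acute phase pentraxin, whereas Crp is induced only modestly, the reverse of the human pattern. Apcs (chromosome 1, 172893961 to 172895041) had 212 and 220 CPM in the WT-labelled libraries and 81.3 and 87.1 CPM in the KO-labelled libraries. The groups were far apart, and Apcs was 0.390 times as high in the KO-labelled libraries (log2 fold change -1.36, SE 0.06, adjusted p = 1.20e-10), the largest change among the members. Its fold change stayed between -1.43 and -1.30 in 11 of 11 alternatives, and it passed in each. Crp (chromosome 1, 172698055 to 172833031) had 246 and 250 CPM in the WT-labelled libraries and 256 and 250 CPM in the KO-labelled libraries. The groups overlapped, and the interval of the log2 fold change was narrow (0.029, 95% interval -0.091 to 0.15, adjusted p = 0.740), with the sign turning under library size scaling (-0.038). The 2 pentraxin genes of chromosome 1 thus had different outcomes, a fall in 1 and no call in the other.

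**Figure D2:**
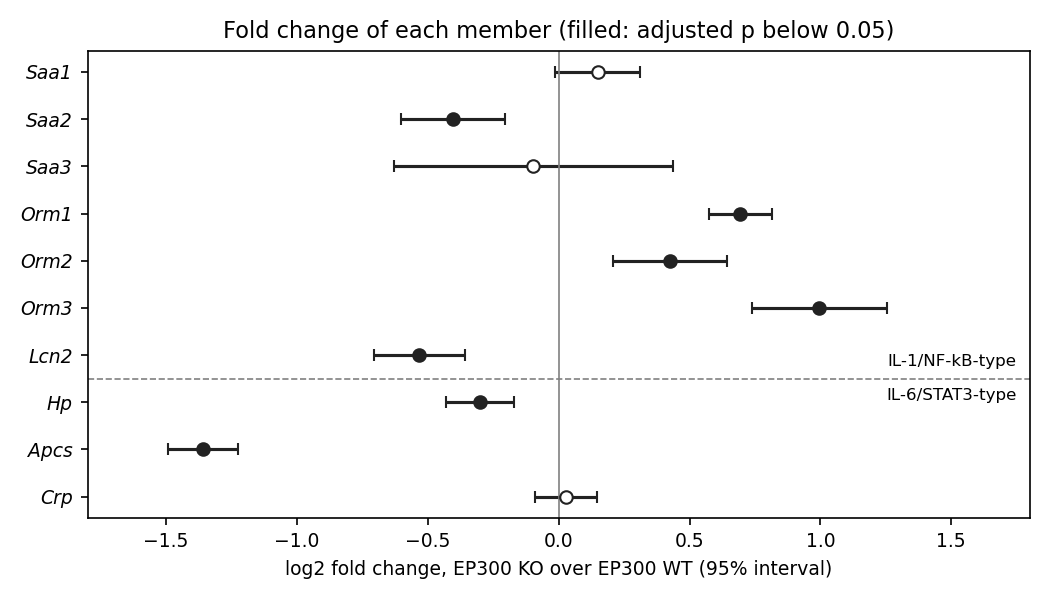
Log2 fold change of each member in the KO-labelled over the WT-labelled libraries, with 95% intervals of edgeR's quasi-likelihood fit and filled points for an adjusted p below 0.05. The IL-1/NF-kB-type members lie on both sides of 0, from Lcn2 at -0.53 to Orm3 at 1.00, and the IL-6/STAT3-type members run from Apcs at -1.36 to Crp at 0.029.

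The cytokine classes are set side by side here, and across all genes tested 16.7% were called higher and 17.5% lower. Counts of so few genes do not show whether the classes differ. Of 7 IL-1/NF-kB-type members, 3 rose, 2 fell and 2 did not pass, with a median log2 fold change of 0.15. Of 3 IL-6/STAT3-type members, 0 rose, 2 fell and 1 did not pass, with a median of -0.30. All 3 rises came from 1 gene family, whose members are not independent of each other. The summed level of the IL-1/NF-kB-type members was 1003 and 1017 CPM in the WT-labelled and 1149 and 1326 CPM in the KO-labelled libraries, and Orm1 held most of it. That of the IL-6/STAT3-type members was 7069 and 7167 CPM in the WT-labelled and 5286 and 6203 CPM in the KO-labelled libraries, nearly all of it Hp. The medians depended on where a few genes were placed. With Crp in the IL-1/NF-kB-type class the IL-6/STAT3-type median was -0.83, and with Saa1, Saa2 and Apcs left out as genes that respond to both cytokines the medians were 0.42 and -0.14. With so few genes a class, and with members that are not replicates, no test of the difference between the classes was made.

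Levels were compared between genes as CPM per kilobase of the principal transcript. In the WT-labelled libraries the order was Hp (mean 4947 ± 45.2 CPM per kilobase, SD, n = 2), Orm1 (609 ± 6.65), Lcn2 (371 ± 0.689), Apcs (222 ± 5.50), Crp (146 ± 1.68), Orm2 (120 ± 2.12), Saa1 (93.3 ± 3.13), Saa2 (54.7 ± 2.21), Orm3 (14.0 ± 0.610) and Saa3 (4.67 ± 0.377). The values of neighbours in this order did not overlap in any pair. In the KO-labelled libraries Apcs (86.7 ± 4.20 CPM per kilobase, SD, n = 2) stood below Orm2, Crp and Saa1, and the values of Orm2 (161 ± 35.4) and Crp (149 ± 2.57) overlapped. Hp stood 8.12 times above Orm1 in the WT-labelled and 4.08 times above it in the KO-labelled libraries.

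The KO-labelled libraries differed from each other more than the WT-labelled ones did. From KO replicate 1 to KO replicate 2, 8 of 10 members were higher, with a median log2 ratio of 0.21 and a range from -0.035 (Crp) to 0.45 (Orm2). Across all genes tested the median of this ratio was -0.0047 and 49.1% were higher in replicate 2. From WT replicate 1 to WT replicate 2, 8 of 10 members were also higher, against 48.4% of all genes tested, but by less, with a median of 0.023 and a range from -0.16 (Saa3) to 0.082 (Saa2). The members together held 0.825% and 0.836% of all counts in the WT-labelled libraries, against 0.628% in KO replicate 1 and 0.735% in KO replicate 2. KO replicate 2 was thus nearer the WT-labelled libraries than KO replicate 1 in Hp, Lcn2, Saa2 and Apcs, and farther from them in Orm1, Orm2, Orm3 and Saa1.

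**Figure D3:**
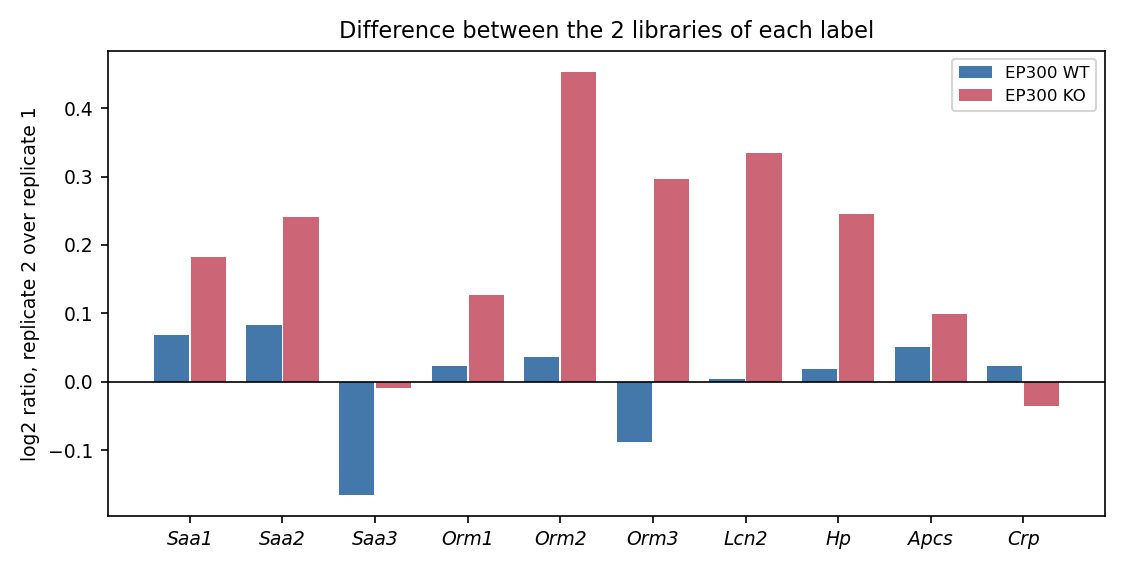
Log2 ratio of replicate 2 over replicate 1 for each member, with blue bars for the WT-labelled and red bars for the KO-labelled pair. Among the KO-labelled bars Orm2 (0.45), Lcn2 (0.33) and Orm3 (0.30) stand highest, and the WT-labelled bars stay between -0.16 and 0.082.

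Other acute phase genes of both types were examined from lists, beside 16.7% of all genes tested called higher and 17.5% lower. Of 23 other IL-6/STAT3-type liver genes, 22 were tested, 4 rose and 10 fell, with a median log2 fold change of -0.20. The largest rises were in Hamp, which encodes the iron hormone hepcidin (2.10, SE 0.06), and in Serpina1c, an alpha-1-antitrypsin gene (1.03, SE 0.08), where 74.2% of the 50-base windows occur in related genes. Serpina1a (-0.20) and Serpina1b (-0.29) of the same family, named after their values were seen, fell, so how reads divide among these copies is uncertain. The largest falls were in Il1rn, the interleukin-1 receptor antagonist (-1.24, SE 0.10), and Fgl1, a fibrinogen-like hepatokine (-0.79, SE 0.07). The fibrinogen chain genes, textbook IL-6 targets named here after their values were seen, had log2 fold changes of 0.30 in Fga, 0.23 in Fgg (both passed) and 0.10 in Fgb (adjusted p = 0.111). Hp and the fibrinogen genes, all IL-6/STAT3-type, therefore had opposite signs. Of 19 other IL-1/NF-kB-type genes, 17 were tested, 2 rose and 9 fell, with a median of -0.13. Sod2, the mitochondrial superoxide dismutase (0.47, SE 0.07), and Nfkbia, the inhibitor IkB-alpha (0.22, SE 0.08), rose, the second not in 6 of 11 alternatives. Cxcl1, a neutrophil chemokine (-1.13, SE 0.07), and Relb, an NF-kB subunit (-0.66, SE 0.15), had the largest falls, and Relb did not pass in 2 of 11 alternatives, one of them without EP300 WT replicate 1.

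Negative acute phase proteins are plasma proteins whose synthesis normally drops while the acute phase genes are induced. Of 10 such genes, 7 fell and 2 rose, with a median log2 fold change of -0.33. Apoa4, an apolipoprotein (-1.60, SE 0.08), and Serpina6, the cortisol-binding globulin (-0.68, SE 0.06), fell most, and 69.8% of the exon bases of Apoa4 overlap another gene. Ttr, the thyroxine carrier transthyretin (0.36, SE 0.05), and Serpinc1, antithrombin (0.21, SE 0.05), rose. Serpinc1 did not pass without EP300 WT replicate 1 or 2, and 34.4% of its exon bases overlap another gene. Falls were thus more numerous than rises among the negative acute phase proteins and also among the other genes of both induced types. Across all genes tested 16.7% were called higher and 17.5% lower, and no list was tested as a set.

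**Figure D4:**
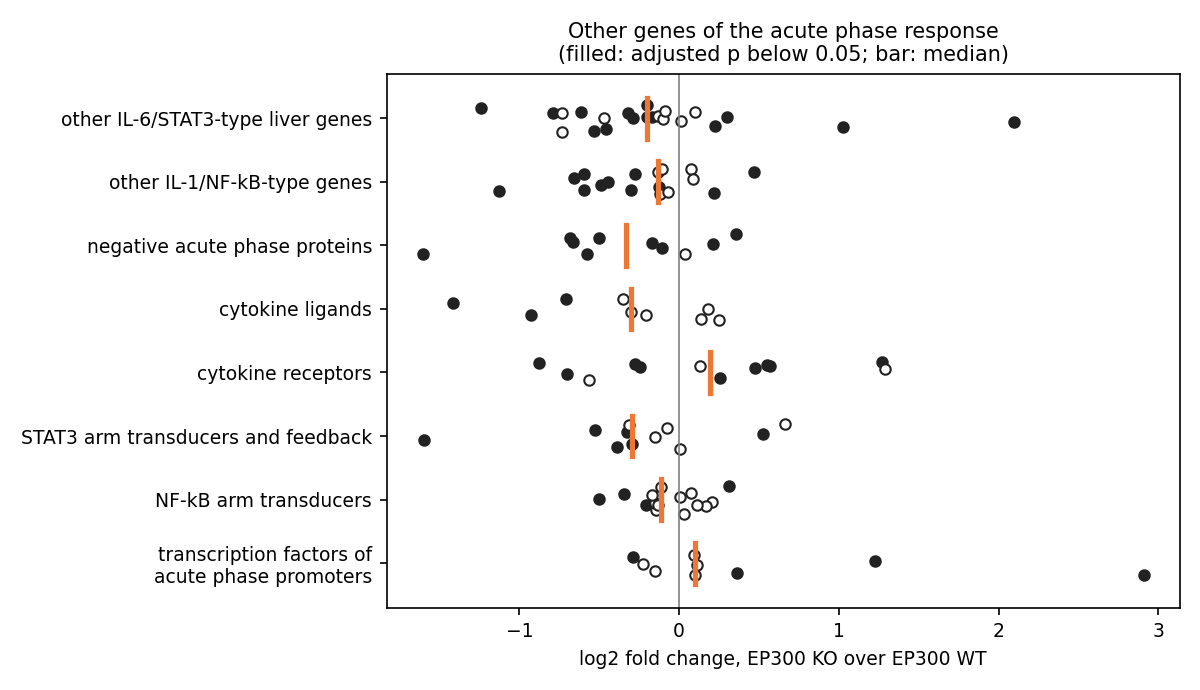
Log2 fold change of each tested gene of 8 lists in the KO-labelled over the WT-labelled libraries, with filled points for an adjusted p below 0.05 and an orange bar at the list's median. The medians of the receptors (0.19) and of the transcription factors (0.10) lie above 0, and those of the other 6 lists lie below it.

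Some of the cytokines that drive the response had few or no counts in these sorted cells. Il6 had 5 and 5 counts in the WT-labelled and 6 and 6 in the KO-labelled libraries and was not tested, and Il17a and Il22 had 0 counts in all 4, which allows up to 0.156 to 0.173 CPM in a library (3 counts, counting error only). Of 13 ligands, 9 were tested, 3 fell and 0 rose, while 17.5% of all genes tested were called lower and 16.7% higher. Lif, an IL-6 family cytokine (-1.42, SE 0.33), and Il33 (-0.92, SE 0.25) had the largest falls, at under 6 CPM in each library, and Il1b, named after its values were seen, went from 13.7 and 11.8 CPM in the WT-labelled to 7.87 and 7.82 CPM in the KO-labelled libraries (-0.71, SE 0.13). Lif did not pass without EP300 WT replicate 1 or 2, Il33 not without EP300 WT replicate 2, and neither passed with no filter.

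Of 12 cytokine receptor genes, 5 rose and 4 fell, against 16.7% and 17.5% of all genes tested. The largest rises were in Il1rap, the accessory chain that IL-1 needs to signal (39.9 and 41.9 CPM in the WT-labelled, 106 and 91.9 CPM in the KO-labelled libraries; log2 fold change 1.27, SE 0.08), and in Il6ra, the IL-6 receptor (80.8 and 79.4 CPM, then 123 and 115 CPM; 0.57, SE 0.06). Il22ra1, the IL-22 receptor (-0.88, SE 0.16), and Osmr, the oncostatin M receptor (-0.70, SE 0.14), fell most, Osmr not passing without EP300 WT replicate 2. Il6st, which encodes gp130 and is named after its values were seen, changed by -0.27 (SE 0.06, adjusted p = 0.00170). The ligand-binding chain and the signalling chain of the IL-6 receptor hence had opposite signs.

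In the STAT3 arm, 1 of 11 genes rose and 5 fell, against 16.7% and 17.5% of all genes tested. Socs2 (-1.60, SE 0.08) and Cish (-0.53, SE 0.09), feedback inhibitors induced mainly through STAT5, had the largest falls, and 18.4% of the windows of Socs2 occur in a related sequence. Pias3, an inhibitor of STAT3, rose (0.53, SE 0.15), though not with DESeq2 or without EP300 WT replicate 1 or 2. Stat3 itself had 149 and 151 CPM in the WT-labelled and 117 and 112 CPM in the KO-labelled libraries (-0.39, SE 0.06, adjusted p = 0.000113), and its feedback target Socs3 changed by -0.32 (SE 0.08, adjusted p = 0.00576), both named after their values were seen. In the NF-kB arm, 1 of 15 genes rose and 3 fell, against 16.7% and 17.5% of all genes tested. Nfkb1, the p50 precursor (-0.50, SE 0.08), and Irak4, a kinase of the IL-1 receptor complex (-0.35, SE 0.12), fell, the second not in 5 of 11 alternatives, and Chuk, the kinase IKK-alpha (0.31, SE 0.07), rose, though not in 3 of 11.

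Of 9 transcription factors that act on acute phase promoters, 3 rose and 1 fell, against 16.7% and 17.5% of all genes tested. Cebpb, the C/EBP factor most closely linked to the acute phase, had 119 and 122 CPM in the WT-labelled libraries and 240 and 322 CPM in the KO-labelled libraries (log2 fold change 1.22, SE 0.10, adjusted p = 8.04e-08), and 20.7% of its exon bases overlap another gene. Cebpb was higher in KO replicate 2 than in KO replicate 1, as were 49.1% of all genes tested. Esrrg, an orphan nuclear receptor, rose from 5 and 3 counts to 32 and 24 counts (2.91, SE 0.49). Nr3c1, the glucocorticoid receptor, fell (-0.29, SE 0.07), though not without EP300 WT replicate 1 or 2. Hnf4a (adjusted p = 0.170) and Cebpa (adjusted p = 0.159) did not pass. A C/EBP match was present upstream of genes that rose (Orm2 and Orm3), that fell (Saa2 and Lcn2) and that did not pass (Saa1 and Saa3). Apcs, which fell, and Crp had no such match, and Hp and Orm1 had no entry. The part of C/EBP factors in these results was not tested.

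Some markers of other cell types differed between the labels. Across all genes tested 16.7% were called higher and 17.5% lower. Of 14 macrophage markers, 5 rose and 4 fell. Their summed level was 1170 and 1161 CPM in the WT-labelled and 1328 and 1264 CPM in the KO-labelled libraries. Marco, a scavenger receptor, changed most (2.59, SE 0.17). Gpnmb alone, with means of 145 and 370 CPM, rose by more than the sum did. Cd5l fell from a mean of 254 to 157 CPM. Gpnmb and Cd5l were named after their values were seen. Summed biliary markers went from 198 and 201 to 127 and 130 CPM (7 of 9 tested, 0 rose, 3 fell). Tff3 fell from a mean of 40.2 to 7.61 CPM. Spp1 fell from 127 to 95.7 CPM, and Tff3 and Spp1 made up most of the fall in the sum. Krt19 (means 0.602 and 0.634 CPM) and Epcam (1.33 and 1.33 CPM) were low and did not pass. Spp1, Krt19 and Epcam were named after their values were seen. Stellate and fibroblast markers went from 274 and 267 to 172 and 165 CPM (0 of 8 rose, 5 fell). Reln fell from a mean of 116 to 31.9 CPM and made up most of the fall in this sum. Dcn, named after its values were seen, had 80.7 and 80.1 CPM. Endothelial markers went from 310 and 304 to 273 and 243 CPM (0 of 8 rose, 4 fell). The part of these cell types in the results of the acute phase genes was not tested.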

How the data were processed

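RNA-seq counts per gene of the EP300 experiment were used, in 2 libraries labelled EP300 KO and 2 labelled EP300 WT, grouped by sample title. The authors deposited raw whole-number counts in 1 table, and 4 of its columns match no sample and were not used. RNA of sorted liver cells was made into libraries with a TruSeq kit, per the labels, a kit type that keeps no strand. STAR, HTSeq, DESeq2 and mm10 are named, without their roles, per the submitters' processing notes. The deposited counts carry Hisat, another aligner than STAR, in their name, so the aligner behind them is uncertain. Annotation and strand setting are not given in the sources used here. The diet experiment's tables, whose identifiers are not mouse gene identifiers, were not used.

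Of 55385 identifiers, 55144 matched a symbol of GENCODE M21 (mm10). Counts were tested with edgeR 4.0.16 in R 4.3.3 (quasi-likelihood F test with group as its only term and 2 residual degrees of freedom, after TMM scaling and a filterByExpr minimum of 10 counts), with Benjamini-Hochberg adjustment over 14200 genes and a threshold of 0.05. Standard errors (SE) were taken from log2 fold change and F statistic. CPM are counts on the TMM-adjusted library size. In simulated counts for this comparison, with 13919 genes tested, 50 genes drawn at random were changed at each fold. There edgeR recovered 48% of genes changed by a fold of 1.5, 84% at 2, 98% at 4 and 96% at 8, and made 5 false calls. Far fewer genes were changed there than the 34.2% called in the data, so these figures do not give the power or error of the calls above. Libraries of 1 label differed beyond sampling noise (chi-square per degree of freedom 2.60 and 5.50).

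Members, lists and tests were chosen with earlier results of these data known. Named were the members and, from each list, up to 2 passing genes with the largest change in each direction whose libraries did not overlap, 1 passing gene of some marker lists, and library checks. Genes outside this rule are marked as named after their values were seen, except the 2 transcription factors given as not passing and Ly6g, named as a defining marker. Alternatives were DESeq2 1.42.0, limma-voom (limma 3.58.1), other scalings, no filter, a replicate block, removal of 19 of the 20 most abundant genes (Hp was kept) or of each library in turn, other class memberships and, added after seeing the data, summed gene families.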

Additional observations from a re-analysis of the deposited data

How the results depend on the processing

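Over 11 refits of the 10 members, 98 of 110 kept their direction and their side of the threshold, 10 lost a call, 1 gained one (Saa1) and 1 turned its sign (Crp, -0.038 with library size alone). Apcs, Orm1 and Orm3 passed in all 11. With no filter 3 members and 2703 of 24666 genes were called, against 7 and 4851, and with gene families summed 4 of the 7 genes or sums. Leaving out a library gave 4 to 8 members and 2306 to 5154 genes, with class medians of 0.060 to 0.25 (IL-1/NF-kB-type) and -0.42 to -0.17 (IL-6/STAT3-type). In these fits the lone library of a label is assumed to vary like the other label. The IL-6/STAT3-type median was -0.83 with Crp moved. With Saa1, Saa2 and Apcs left out the medians were 0.42 and -0.14. Both settings change which genes enter a class. The causes of the other differences were not tested. Library size scaling gave 37.7% of all calls as higher, against 48.8%, and shifted the median of all genes to -0.072. With the replicate number as a block, 5190 genes and 7 members were called. Same-numbered libraries did not deviate together (correlation 0.00413 across genes), so the numbers are not taken to pair them. Low counts limit Saa3, whose interval spans 0 widely. The filter on low counts left 4 of 13 cytokine ligands and all 13 lymphocyte and adipocyte markers untested.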
